A study of Rattus norvegicus with 27 samples.

Results

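Hearts of rats that had inhaled fine particles for 3 months were compared with hearts of rats that had breathed filtered air. The comparison took the arrays whose titles name fine particles, 6 in number, and those whose titles name filtered air, 7 in number, which made 13 of the 27 arrays of the series. All animals were male Fisher 344 rats, an inbred laboratory strain, 4 weeks old when the exposure began. Total RNA of the heart was amplified, labelled with biotin and hybridised to Illumina rat bead arrays, on which every spot reports the amount of 1 transcript sequence. The 4 groups of the study were fine, coarse and ultrafine ambient particles (6, 6 and 8 arrays) and filtered air (7 arrays). Of 32 arrays hybridised, the authors left out 5 with a weak signal. The study asked what months of inhaling particles from outdoor air do to the heart's gene expression and to signs of oxidative stress. What the particles were made of and at what concentration they were given is not stated in the sources used here. Nothing in the labels says that each array is a rat of its own, so every p-value measures the spread between these samples only.

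Fine particles are those small enough to pass the airways and settle deep in the lung, between the coarse particles caught higher up and the ultrafine ones. In rodents and people, inhaled particles are studied for oxidative stress, inflammation, blood vessel tone and the electrical and contractile state of the heart. The heart runs mainly on fatty acids, and the kinase Pdk4, which shuts glucose carbon out of the citrate cycle, and the cytochrome Cyp2e1, which oxidises small molecules and ketones, are among the genes that follow its fuel supply.

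The libraries carried transcripts that define heart muscle, though not every such marker read high. Levels, on the log2 scale of the deposited table, were 13.32 to 13.92 for Myh6, the adult rat's main cardiac myosin, with fine particles and 13.39 to 13.67 with filtered air. Tnnt2 and Tnni3, both cardiac troponins, stood between 13.58 and 13.97 with fine particles and between 13.60 and 13.97 with filtered air. The probe of cardiac actin, Actc1, read only 6.87 to 7.31 with fine particles and 6.78 to 7.41 with filtered air. The calcium pump Atp2a2 lay at the highest value of the table, 14.17, on 4 of 6 fine particle arrays and 6 of 7 filtered air arrays, so it could show no increase. Genes of T lymphocytes and thymocytes were high on single arrays. The mean of 21 lymphocyte markers was 7.19 on fine 2 and 6.58 on fine 4, against 6.10 to 6.27 on the other fine particle arrays. In filtered air it was 8.03 on air 1 and 6.07 to 6.40 on the other 6. Cd3d, part of the receptor with which T cells see antigen, read 9.57 on fine 2, 7.89 on fine 4 and 11.01 on air 1. Rag1, Lck, Dntt and Cd8a were likewise highest on these arrays within their groups. Cd4, another T cell marker, did not follow, at 5.94, 5.74 and 5.99 on the same arrays. By a rule on these markers and on the correlation between arrays, 9 of the 27 arrays stood apart, among them fine 2, fine 4 and air 1, which leaves 4 fine particle and 6 filtered air arrays of 18. Results are therefore given with all 27 arrays, with these 18, and where it matters with the 25 left without fine 2 and air 1. In RNA of a whole heart, fewer cells of a type and less RNA per cell cannot be told apart.

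Between fine particles and filtered air, no transcript passed the test. Of 11657 probes kept, 0 (0%) had an adjusted p under 0.05 by limma, and 0 met the authors' looser rule of a fold over 1.5 at a false discovery rate under 25%. At an unadjusted p under 0.05 there were 697 probes, 5.98% of those tested, 405 with a higher level with fine particles (3.47%) and 292 with a lower one (2.5%). Counted as genes, these were 291 higher (3.66%) and 216 lower (2.72%) of 7952, and 189 of the 697 probes carried no gene name. The lowest adjusted p was 0.405. The same test with weights for array quality called 19 probes, 14 higher and 5 lower with fine particles. For most probes a large difference in the measured level lay outside the interval. For probes near the lowest or highest values of the table this does not show that the transcript was unchanged. The median standard error was 0.10 on the log2 scale, and the 95% interval of the fold lay within 1.5-fold either way for 10132 probes (86.9%) and within 2-fold for 11415 (97.9%). Only 27 probes (0.232%) had an estimated fold over 1.5. The median difference over all genes was 0.00, with 50% of the genes above 0. The groups did not overlap for 35 genes in which every fine particle array lay above every filtered air array (0.44% of genes) and for 20 in which every one lay below (0.252%). In the 18 arrays 0 probes were called either, with 9.55% at an unadjusted p under 0.05. In the 25 arrays the count was again 0, with 3.68%. With the 13 arrays of the compared groups fitted alone it was also 0, with 13.3%. The lowest adjusted p of limma was 0.0597 there. With 1 fine particle or filtered air array left out at a time, 0 probes were called each time, and the count at an unadjusted p under 0.05 ran between 417 and 841. It moved by over 1.5 times without fine 1 (425), fine 2 (417) and air 7 (428).

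**Figure D1:**
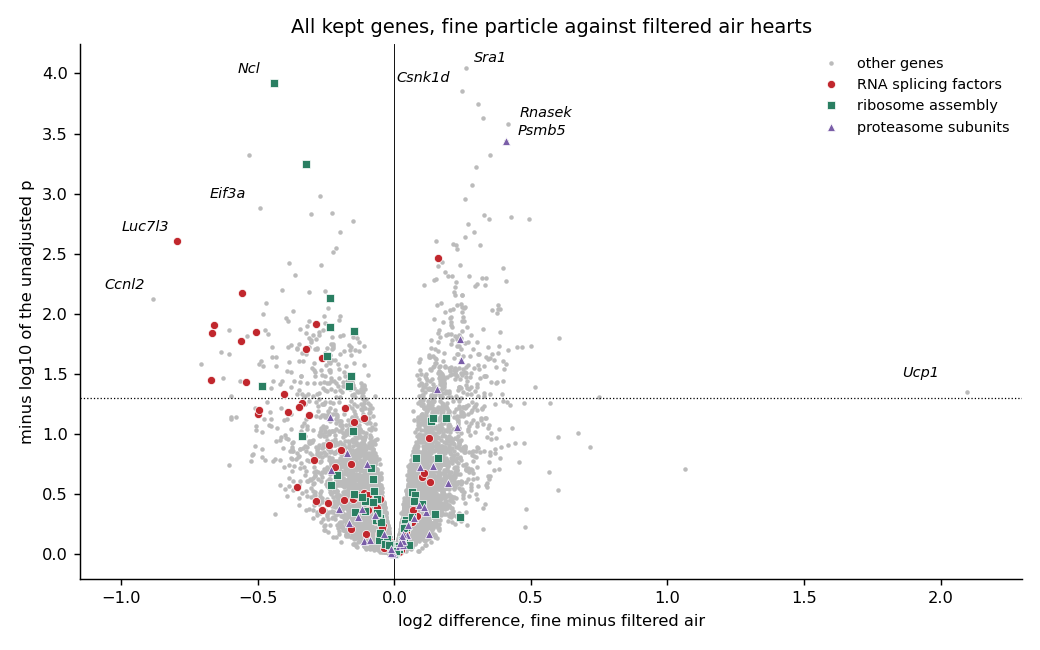
Each point is 1 gene, placed by its log2 difference between fine particle and filtered air hearts (horizontal) and the unadjusted p of limma as minus log10 (vertical). Members of the RNA splicing, ribosome assembly and proteasome lists are marked. Most points lie within 0.5 of 0, most marked splicing factors lie left of 0, and no gene passed the adjusted test.

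Genes of RNA splicing lay on the low side with fine particles. Splicing removes introns from new transcripts, and the U1 particle, which marks the start of each intron, and the SR and hnRNP proteins, which bind exons and introns, decide which pieces are joined. Of 65 splicing genes measured, 15 had a difference above 0 and 50 below, with a median log2 difference of -0.14 against 0.00 over all genes. At an unadjusted p under 0.05 were 12 members below filtered air and 1 above, which is 13 of 65 set beside the 5.98% of all probes. None was called, and the lists were drawn up with earlier results of these arrays known, so the counts describe these arrays and are not a test of the list.

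Luc7l3, a partner of the U1 particle, had the smallest p of the splicing genes. Its lowest, median and highest log2 levels were 7.94, 8.36 and 8.67 in fine particle hearts, against 8.69, 8.91 and 9.71 in filtered air hearts. All 6 fine particle arrays therefore lay below all 7 filtered air arrays, though the highest of one group and the lowest of the other almost touched. The log2 difference was -0.80 ± 0.24 (SE, 95% interval -1.28 to -0.31), a 1.74-fold lower level, and limma's adjusted p was 0.796. Here and further on, the SE and interval of a difference rest on the spread within all 4 groups (27 arrays), not on the compared groups alone. The difference was -0.77 in the 18 arrays and ranged over -0.87 to -0.69 when each array was left out in turn. The window around the start of its gene (chr10:79773380-79773679, minus strand, assembly GRCr8, RefSeq) is shown because this was the splicing gene whose groups did not overlap. Here and in the windows further on, 250 bases before the start and 50 after it are written 5′ to 3′ on the gene's strand, with capitals for motif matches. The capitals here are 2 matches to the antioxidant response element, TGACNNNGC, the letters bound by Nrf2, the regulator of oxidative stress genes.
Luc7l3: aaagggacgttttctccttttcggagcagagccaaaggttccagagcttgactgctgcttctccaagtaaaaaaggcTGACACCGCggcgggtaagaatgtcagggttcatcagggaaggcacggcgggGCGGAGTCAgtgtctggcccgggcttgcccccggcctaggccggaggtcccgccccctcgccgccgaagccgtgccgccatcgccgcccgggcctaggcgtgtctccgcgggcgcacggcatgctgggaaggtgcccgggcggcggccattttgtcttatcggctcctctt

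Ccnl2, cyclin L2, is a partner of a kinase that phosphorylates splicing factors, and had the lowest log2 difference of all named genes with an unadjusted p under 0.05. Its levels were 7.30, 8.06 and 8.36 in fine particle hearts (lowest, median and highest), against 8.33, 8.50 and 9.52 in filtered air hearts. The groups overlapped by 1 fine particle array, fine 6, which at 8.36 lay above air 3 at 8.33. The log2 difference was -0.88 ± 0.30 (95% interval -1.51 to -0.26, limma's adjusted p 0.824), and -0.80 in the 18 arrays. Its window (chr5:171699525-171699824, plus strand, GRCr8, RefSeq) holds 2 matches to the ETS motif CCGGAAGT, in capitals and both in the reverse orientation.
Ccnl2: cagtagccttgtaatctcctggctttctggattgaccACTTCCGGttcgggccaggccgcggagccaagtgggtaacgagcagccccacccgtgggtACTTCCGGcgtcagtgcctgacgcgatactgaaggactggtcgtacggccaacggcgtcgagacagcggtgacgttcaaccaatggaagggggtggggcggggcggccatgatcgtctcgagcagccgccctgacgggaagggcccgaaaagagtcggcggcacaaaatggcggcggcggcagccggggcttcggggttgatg

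The kinases Clk1 and Clk4 phosphorylate SR proteins and so release them for splicing. Clk1 stood at 7.23, 8.30 and 8.78 in fine particle hearts, against 8.32, 8.48 and 9.72 in filtered air hearts, with a log2 difference of -0.67 ± 0.30. Clk4 had a difference of -0.40 ± 0.19. In Clk1, Ddx5 and Rbm39 alike, fine 2 held the lowest fine particle value and fine 1 the next, and air 2, air 6 and air 7 held the highest filtered air values.

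The SR-like exon binder Tra2a had a difference of -0.67 ± 0.25, and Srsf5, an SR protein, one of -0.56 ± 0.22. Among the hnRNP proteins, Hnrnph1, which binds runs of G, stood at 7.07, 8.11 and 8.47 in fine particle hearts, against 8.26, 8.49 and 8.94 in filtered air hearts. Its difference was -0.66 ± 0.25 with all arrays and -0.52 in the 25, and its lowest value was that of fine 2. Hnrnpm followed with -0.51 ± 0.19. The helicase Ddx5, which opens RNA duplexes at splice sites, stood at 9.76, 10.19 and 10.53 against 10.33, 10.58 and 11.11, a difference of -0.56 ± 0.19, in fine particle and filtered air hearts. The splicing coactivator Rbm39 differed by -0.54, the U1 protein Snrnp70 by -0.32, the Luc7l3 relative Luc7l by -0.29 and the exon junction protein Pnn by -0.26. The exception in direction was Hnrnpab, at 0.16 ± 0.05. Rsrp1, an arginine and serine rich protein that was in no list, differed by -0.63 ± 0.28. Limma's adjusted p was between 0.796 and 0.829 for each of these genes.

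Averaged over the 65 genes, the splicing level was 7.39 ± 0.07 with fine particles and 7.58 ± 0.10 with filtered air (SD, 6 and 7 arrays). The fine particle arrays ran 7.32, 7.29, 7.44, 7.43, 7.41 and 7.49 in the order of their numbers, and the filtered air arrays 7.64, 7.60, 7.46, 7.50, 7.46, 7.66 and 7.72. The groups overlapped, as fine 6 lay above air 3 and air 5. The same mean was 7.39 to 7.78 with coarse and 7.28 to 7.93 with ultrafine particles, spans that take in most of both groups. In the 18 arrays 16 of the 65 genes lay above 0, the median was -0.11, and 15 genes lay below and 2 above at an unadjusted p under 0.05, beside 4.60% and 5.18% of all genes. In the 25 arrays these were 18 of 65, a median of -0.10, and 6 below and 1 above, beside 1.75% and 2.14%.

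**Figure D2:**
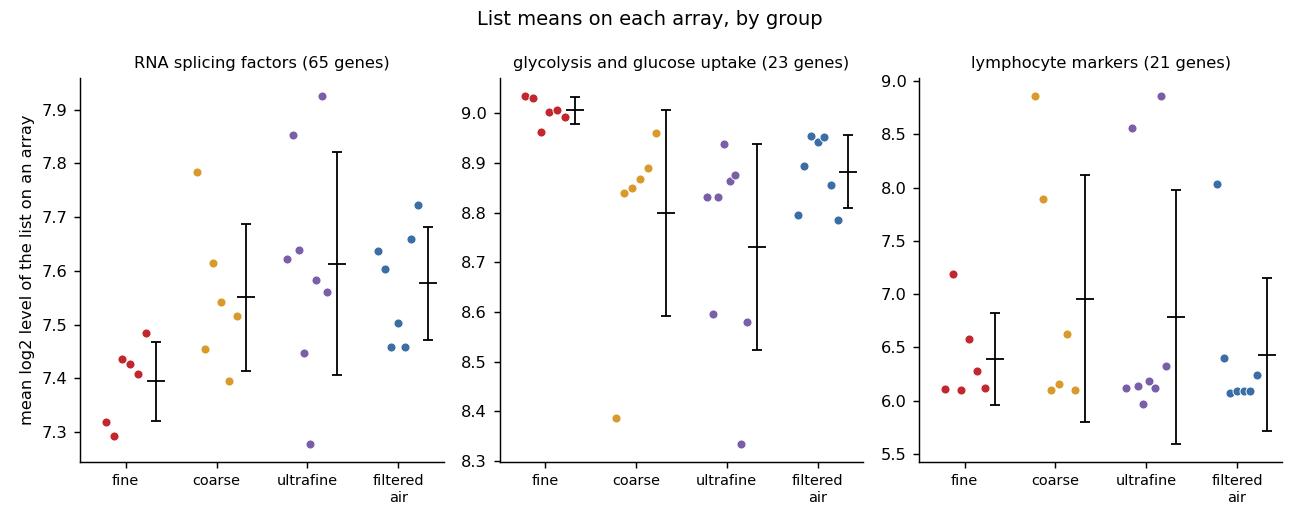
Mean log2 level of the splicing, glycolysis and lymphocyte lists on each array (points), with the group mean and SD (bar), for fine, coarse and ultrafine particles and filtered air from left to right. Fine particle arrays lie low for splicing and high for glycolysis, and single arrays of every group lie high for lymphocyte genes.

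Among genes with a lower level, the smallest p belonged to a gene of ribosome assembly. Ncl, nucleolin, is the main protein of the nucleolus, where ribosomal RNA is made and processed. Its levels were 7.82, 7.92 and 8.14 in fine particle hearts, against 8.30, 8.35 and 8.57 in filtered air hearts, and the groups did not overlap. The log2 difference was -0.44 ± 0.10 (95% interval -0.64 to -0.24), with an unadjusted p of 0.00012 and an adjusted p of 0.405 by limma. It was -0.40 in the 18 arrays and -0.48 to -0.41 with each array left out.

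Nol8, another nucleolar protein, also had no overlap, with 6.71, 6.91 and 7.06 in fine particle hearts against 7.07, 7.19 and 7.40 in filtered air hearts and a difference of -0.32 ± 0.08. Of the list of 66 ribosome assembly genes, 27 lay above 0 and the median was -0.02, close to that of all genes. At an unadjusted p under 0.05, 0 lay above and 9 below, beside 3.66% and 2.72% of all genes. In 3 of the 66 the groups did not overlap (0.252% of all genes did so in this direction). The other members among the 9 were Nop58, the core of the particles that guide methylation of ribosomal RNA, at -0.49 ± 0.22, the nuclear GTPase Gnl2 at -0.25, the helicases Ddx52 and Ddx10 at -0.23 and -0.17, and Mphosph10 and Utp18 of the small subunit processome at -0.23 and -0.16. Noc2l, a nucleolar chromatin protein, stood at -0.15. At that p 0 of the 66 lay above and 10 below in the 18 arrays, and 1 above and 5 below in the 25.

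Among the factors of translation, Eif3a, the scaffold of the complex that brings messenger RNA to the small subunit, had no overlap. It stood at 9.54, 9.76 and 10.02 in fine particle hearts, against 10.06, 10.32 and 10.45 in filtered air hearts. The difference was -0.49 ± 0.14 (95% interval -0.77 to -0.21, limma's adjusted p 0.737), and -0.44 in the 18 arrays. Eif5, which triggers GTP hydrolysis at the start codon, differed by -0.39 ± 0.16. Pabpc4, which binds poly(A) tails, stood on the other side at 0.28 ± 0.11. Over the 41 initiation and elongation factors, 23 lay above 0, with a median of 0.06. Of the proteins of the ribosome itself, 34 of 60 cytosolic and 36 of 58 mitochondrial ones lay above 0, with a median of 0.03 in both lists. The Eif3a window (chr1:269918976-269919275, minus strand, GRCr8, RefSeq) is shown for its 2 kinds of match, a reversed antioxidant response element and, past the start, the E-box CACGTG, letters bound by Myc and Usf proteins.
Eif3a: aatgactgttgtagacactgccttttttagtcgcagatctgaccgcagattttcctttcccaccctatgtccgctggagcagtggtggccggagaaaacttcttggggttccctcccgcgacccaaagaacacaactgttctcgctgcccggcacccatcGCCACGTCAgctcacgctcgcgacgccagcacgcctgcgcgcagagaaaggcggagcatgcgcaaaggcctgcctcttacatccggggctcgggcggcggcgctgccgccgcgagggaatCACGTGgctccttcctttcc

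Motif counts put these windows in proportion. Both strands were searched, and none of the matches printed here overlapped another motif. The printed windows all hold a match, but other genes named here had none. No motif searched was in the windows of Ncl, Sra1, Rnasek, Clk1 and Hnrnph1. The Ddx5 window, also not printed, held 1 match to the antioxidant response element. Of the 66 ribosome assembly genes 59 had a window, of which 30.5% held the E-box and 37.3% the ETS motif. Over the 6624 kept genes with a window these shares were 9.07% and 7.78%, and over all 27457 RefSeq windows they were 6.65% and 4.01%. In the 58 splicing windows they were 13.8% and 8.62%. The ETS motif was in 13.1% of the 183 windows of genes with a lower level at an unadjusted p under 0.05, and in 8.33% of the 240 of genes with a higher one. The antioxidant response element was in 14.9% of the windows of kept genes, 15.5% of the splicing ones and 21.6% of the 37 proteasome ones. A match shows only that these letters are present, and binding was not measured.

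The proteasome breaks down proteins that carry ubiquitin, and its catalytic subunit Psmb5, which cuts after hydrophobic residues, had groups that did not overlap. Its levels were 10.62, 10.68 and 10.82 in fine particle hearts, against 10.08, 10.29 and 10.49 in filtered air hearts. The log2 difference was 0.41 ± 0.10 (95% interval 0.20 to 0.61, limma's adjusted p 0.526), 0.40 in the 18 arrays and 0.37 to 0.44 with each array left out. With array weights limma's adjusted p was 0.0216, and over all alternatives it ran up to 1. Psme2, a subunit of the activator that interferon induces, differed by 0.24 ± 0.09, Psmd2, which docks substrates, by 0.24 ± 0.10, and the ATPase Psmc4 by 0.16 ± 0.07. These were the 4 of 39 subunits at an unadjusted p under 0.05, beside 3.66% of all genes in this direction, and 0 of 39 lay below. Over the list, 23 of 39 lay above 0 and the median was 0.03. The Psmb5 window (chr15:32047330-32047629, minus strand, GRCr8, RefSeq) is shown because proteasome genes are known targets of Nrf2 and of its relative Nrf1, and its capitals are 1 match to the antioxidant response element.
Psmb5: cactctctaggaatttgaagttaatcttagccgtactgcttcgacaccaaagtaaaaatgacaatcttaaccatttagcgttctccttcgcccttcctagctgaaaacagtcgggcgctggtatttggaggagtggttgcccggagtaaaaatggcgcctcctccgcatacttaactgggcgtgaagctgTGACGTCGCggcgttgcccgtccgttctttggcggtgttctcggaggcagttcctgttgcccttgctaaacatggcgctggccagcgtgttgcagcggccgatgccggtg

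In ubiquitin conjugation the members pointed both ways. Ube2m, which hands the ubiquitin-like Nedd8 to cullins, stood at 8.31, 8.46 and 8.85 in fine particle hearts, against 7.94, 8.15 and 8.29 in filtered air hearts, without overlap and with a difference of 0.39 ± 0.14. Ube2l3, the partner of parkin-type ligases, was also free of overlap, at 0.25 ± 0.09. Ube2j2, which serves the quality control of the endoplasmic reticulum, differed by -0.27 ± 0.09. Over the 34 genes 15 lay above 0.

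The other genes of smallest p came from scattered functions. Csnk1d, casein kinase 1 delta, sets the pace of the circadian clock by phosphorylating its proteins. It stood at 7.11, 7.19 and 7.24 in fine particle hearts, against 6.86, 6.94 and 7.03 in filtered air hearts, without overlap, and the difference was 0.25 ± 0.06 (limma's adjusted p 0.405). Cptp, which carries ceramide-1-phosphate between membranes, was likewise apart, at 6.82, 6.92 and 7.10 against 6.50, 6.63 and 6.76 in fine particle and filtered air hearts, with a difference of 0.31 ± 0.07 (adjusted p 0.419). Grina, a membrane protein of the Bax inhibitor family, had no overlap either, at 0.35 ± 0.09.

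Rnasek, a small protein bound to the proton pump of lysosomes, follows. Its levels were 11.01, 11.24 and 11.43 in fine particle hearts, against 10.47, 10.87 and 11.06 in filtered air hearts, and the groups overlapped through fine 6 at 11.01, which lay below air 1 and air 5. The difference was 0.42 ± 0.10. Sra1, the steroid receptor RNA activator, had the smallest p of all named genes, with a difference of 0.26 ± 0.06 and an adjusted p of 0.405 by limma. Lrrc41, of a ubiquitin ligase, differed by 0.33, Naxe, which repairs damaged NADH, by 0.30, Sars2, which charges mitochondrial serine tRNA, by 0.26, and Polr2i, a subunit of RNA polymerase II, by 0.43. Ascc1 stood at 0.28 with all arrays and 0.17 in the 18, and Syngr1, a vesicle protein, at 0.33.

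On the low side, Anxa1, annexin A1, an anti-inflammatory protein that glucocorticoids induce, stood at 8.19, 8.79 and 9.05 in fine particle hearts, against 8.81, 9.29 and 9.58 in filtered air hearts. Every fine particle array lay below the filtered air mean, but fine 4, 5 and 6 lay within the filtered air range. The difference was -0.53 ± 0.13 (adjusted p 0.526 by limma). Gpn3, a GTPase in the assembly of RNA polymerase II, was free of overlap at 5.85, 6.22 and 6.28 against 6.33, 6.45 and 6.54, a difference of -0.31 ± 0.09, in fine particle and filtered air hearts. Gtf2h1 of the transcription factor TFIIH differed by -0.27, the matrix protein Cthrc1 by -0.23, the tRNA methylase Trmt13 by -0.15, the chromatin protein Arid4a by -0.20, the RNA deadenylase Toe1 by -0.21 and the centrosome protein Pibf1 by -0.23. The zinc finger gene Zfp386 had a wider difference, -0.64 ± 0.26.

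**Figure D3:**
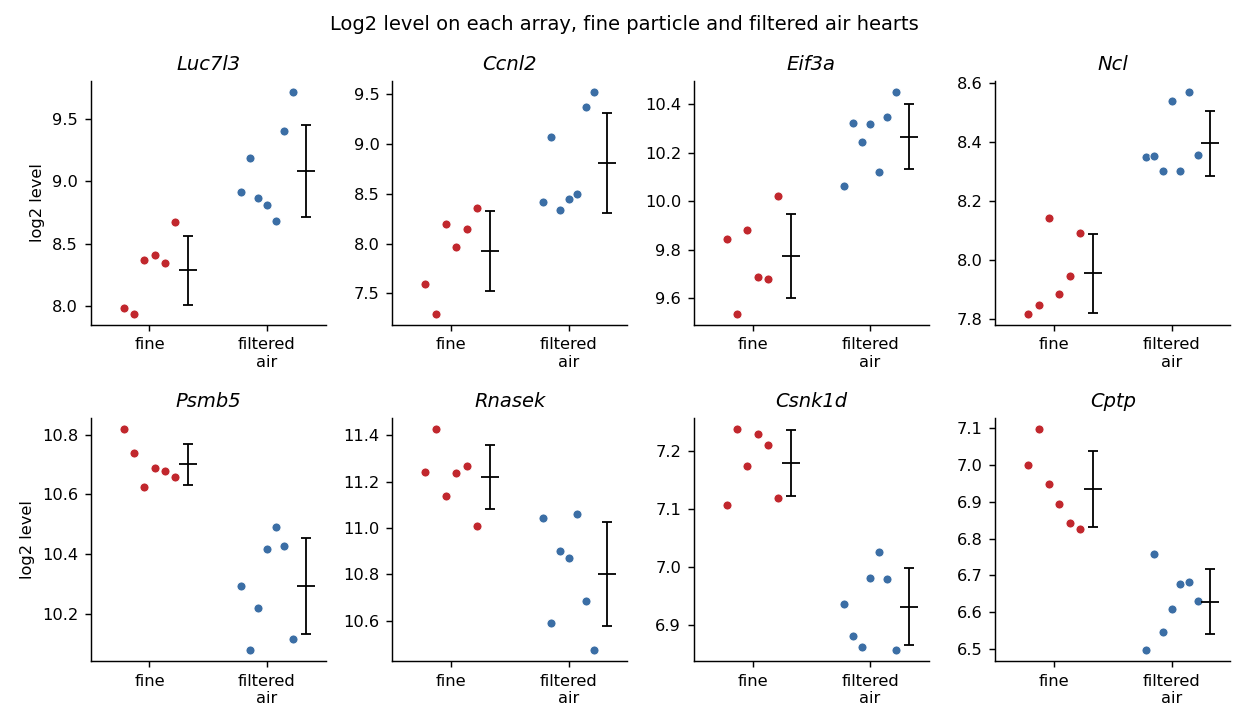
Log2 level of 8 genes on each array (points) with the group mean and SD (bar), fine particle hearts left and filtered air hearts right in each panel. Luc7l3, Eif3a, Ncl, Psmb5, Csnk1d and Cptp show no overlap, while single arrays of Ccnl2 and Rnasek cross into the other group.

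In energy metabolism the genes of glycolysis lay mostly above filtered air. Of 23 genes of glucose uptake and glycolysis, 21 lay above 0 with a median of 0.11. At an unadjusted p under 0.05 was 1 gene above and 0 below, beside 3.66% and 2.72% of all genes. That gene was Eno1, an enolase, at 8.27, 8.39 and 8.74 in fine particle hearts against 7.89, 8.12 and 8.38 in filtered air hearts and a difference of 0.33 ± 0.16. Pkm, pyruvate kinase, had the widest difference named, 0.48 ± 0.24 (95% interval -0.01 to 0.97), and its groups overlapped. The mean over the 23 genes was 8.96 to 9.03 with fine particles and 8.78 to 8.95 with filtered air. No array overlapped, but the groups almost touched, at 8.963 on fine 3 and 8.954 on air 3. Of all the gene lists examined, only this list had means that did not overlap, so the separation is picked from many. In the 18 arrays 19 of the 23 lay above 0, again with a median of 0.11, and in the 25 arrays 18 with 0.08. Arrays of the other sizes had list means of 8.39 to 8.96 with coarse and 8.33 to 8.94 with ultrafine particles, lowest on coarse 1 and ultrafine 7, where lymphocyte genes were highest.

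Of 60 genes of the respiratory chain and ATP synthase, 32 lay above 0, and at an unadjusted p under 0.05 were 3 above and 0 below, beside 3.66% and 2.72% of all genes. These counts were 9 and 4 in the 18 arrays and 0 and 0 in the 25. The 3 were the complex I subunits Ndufb11 (0.31 ± 0.13), Ndufs8 (0.33 ± 0.15, no overlap) and Ndufv3 (0.16 ± 0.07). The list mean was 11.58 on fine 2 and 11.50 on air 1, below all other arrays of their groups, and these are the arrays high in lymphocyte genes. Of 35 genes of fatty acid oxidation 17 lay above 0. Acat1, which splits acetoacetyl-CoA in mitochondria, differed by -0.60 ± 0.29, and Ucp2, an uncoupling protein of the inner membrane, by 0.34 ± 0.15. In the citrate cycle list 12 of 31 lay above 0, with Sucla2, a succinate-CoA ligase subunit, at -0.52 ± 0.35 and Pdk2, a pyruvate dehydrogenase kinase, at 0.29 ± 0.20. For glycogen metabolism 9 of 13 lay above 0, but 6 in the 18 arrays and 7 in the 25, with the muscle phosphorylase Pygm at 0.18 ± 0.17. The glucose transporter Slc2a4 stood at 9.84 ± 0.13 with fine particles and 9.73 ± 0.24 with filtered air (SD, 6 and 7 arrays).

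Oxidative stress is named in the study's question, and no gene of its lists was called. Of 23 targets of Nrf2, 17 lay above 0 with a median of 0.08. Only the glutathione transferase Gstm1 had an unadjusted p under 0.05, with 0.27 ± 0.13, beside 3.66% of all genes higher at that p. Blvrb, a biliverdin reductase, had no overlap at 8.61, 8.68 and 9.06 in fine particle hearts against 8.42, 8.57 and 8.60 in filtered air hearts, a difference of 0.24 ± 0.13. The best known markers had intervals that include 0. Hmox1, haem oxygenase, stood at 7.05 ± 0.18 with fine particles and 6.95 ± 0.11 with filtered air, a difference of 0.10 (95% interval -0.13 to 0.34). Nqo1, a quinone reductase, had 7.96 ± 0.06 and 7.93 ± 0.19, and a difference of 0.04, which was -0.01 in the 18 arrays.

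Of 34 antioxidant enzymes 18 lay above 0. Park7, a sensor of oxidants, differed by 0.22 ± 0.09, Prdx2, a peroxiredoxin, by 0.23 ± 0.12 and Gpx8, a peroxidase of the endoplasmic reticulum, by -0.30 ± 0.18. Sod2, the mitochondrial superoxide dismutase, stood at 9.57 ± 0.44 and 9.79 ± 0.40 with fine particles and filtered air, with a difference of -0.23 (95% interval -0.83 to 0.38). Of 19 genes of xenobiotic metabolism 13 lay above 0, with Mgst3, a microsomal glutathione transferase, free of overlap at 0.37 ± 0.22. Cyp1a1, the best known target of the aryl hydrocarbon receptor, lay below the filter on low values, as did Il6 and Tnf, and no probe carried the name Cyp1b1. Of 40 heat shock genes 20 lay above 0, with the mitochondrial chaperonin Hspe1 at 0.27 ± 0.09 and the cytosolic Dnaja1 at -0.39 ± 0.21. Of 32 genes of endoplasmic reticulum and integrated stress 16 lay above 0, with Manf, a secreted stress protein, at 0.25 and the stress gene Ddit4 at -0.32.

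No gene of the inflammation and immune cell lists was called. Of 41 inflammatory genes 11 lay above 0, with a median of -0.05, but in the 18 arrays 21 of 41 did, with a median of 0.00. Nfkb2, a subunit of NF-kappaB, differed by 0.23 ± 0.09 and the receptor Tnfrsf1a by 0.16 ± 0.07. The monocyte attractant Ccl2 stood at 6.74 ± 0.14 with fine particles and 6.57 ± 0.19 with filtered air, and Il1b at 5.99 ± 0.08 and 6.02 ± 0.20. Of 31 genes of complement and coagulation 8 lay above 0, 12 in the 18 arrays and 13 in the 25, with a median below 0 in each set (-0.05, -0.03 and -0.04). C1s, a protease of the classical complement pathway, stood at 8.92, 10.04 and 10.54 in fine particle hearts, against 9.77, 10.65 and 11.23 in filtered air hearts, a difference of -0.71 ± 0.30. Fine 2 and fine 1 were its lowest fine particle arrays, as in the splicing genes, and without the arrays that stand apart the difference was -0.59. F3, tissue factor, the trigger of clotting, differed by -0.32 ± 0.22.

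In the interferon list 15 of 24 lay above 0, 18 in the 18 arrays and 19 in the 25, with medians of 0.03, 0.06 and 0.04. Its factor Irf3 stood apart from the others at -0.47 ± 0.18, and Ifi35 at 0.15. Of 23 macrophage markers 10 lay above 0 and 13 in the 18 arrays, with the scavenger receptor Cd163 at -0.08 and Cd14 at 0.11. Of 21 lymphocyte markers 7 lay above 0 with all arrays, 12 in the 18 arrays and 16 in the 25, so their lean moved with the few arrays in which they are high. Their part in the results was not tested beyond these sets of arrays. Tpsab1, a mast cell tryptase, differed by 0.18 ± 0.08.

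No gene of the contractile apparatus was called. Of 28 sarcomere genes 16 lay above 0, with a median of 0.02. At an unadjusted p under 0.05 were 0 in either direction with all arrays and with the 25. In the 18 arrays they were 5 above and 1 below, beside 5.18% and 4.60% of all genes. Actn2, alpha-actinin of the Z-disc, differed by 0.29 ± 0.20. Des, desmin, had no overlap at 13.05 ± 0.04 in fine particle hearts against 12.83 ± 0.13 in filtered air hearts (SD, 6 and 7 arrays). Its difference was 0.22 ± 0.19, an SE that rests on the spread within all 4 groups and not on these 2 alone. The mean of the sarcomere list was 10.43 on coarse 1 and 10.41 on ultrafine 7, against at least 11.42 with fine particles and 11.21 with filtered air. Myh6 stood at 13.55 ± 0.22 with fine particles and 13.52 ± 0.11 with filtered air, and the slow myosin Myh7 at 13.69 ± 0.08 and 13.71 ± 0.09, with intervals of -0.38 to 0.44 and -0.21 to 0.18.

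The natriuretic peptides, which stretched heart muscle releases, were more variable. Nppa stood at 11.49, 11.91 and 12.26 (lowest, median and highest) with fine particles, against 10.05, 12.36 and 12.83 with filtered air, and its difference of -0.08 had an interval of -1.24 to 1.08. Nppb differed by 0.20 ± 0.27. Of the 25 genes of hypertrophy and the fetal programme 14 lay above 0, with the heart transcription factors Nkx2-5 at 0.30 ± 0.17 and Hand2 at 0.19 ± 0.12, and Ccn2, a matrix signal, at -0.38 ± 0.26.

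In calcium cycling 12 of 31 lay above 0, with the calcium channel Orai1 at 0.39 ± 0.15. Its highest level was that of fine 2, 8.82, and in the 18 arrays its difference was 0.29. Of 28 ion channels 14 lay above 0. Hcn2, a pacemaker channel, stood at 6.99, 7.16 and 7.38 in fine particle hearts, against 6.44, 6.68 and 7.19 in filtered air hearts, a difference of 0.37 ± 0.16, and the potassium channel Kcna4 differed by -0.16 ± 0.07.

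Vessel tone genes were even, with 14 of 28 above 0. The nitric oxide synthase Nos3 stood at 8.29 ± 0.17 with fine particles and 8.05 ± 0.18 with filtered air (0.25, 95% interval -0.19 to 0.69), and the constrictor Edn1 at 5.90 ± 0.11 and 5.96 ± 0.12. Ace, which makes angiotensin II, and its receptor Agtr1a differed by 0.03 and -0.06, and the peptide genes Apln and Penk by -0.01 and 0.39.

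Fibroblast markers lay mostly below filtered air. Of 18 fibroblast markers 6 lay above 0 and 5 in the 18 arrays, with medians of -0.05 and -0.09. Their mean was 8.37 to 8.77 with fine particles and 8.48 to 8.81 with filtered air. At an unadjusted p under 0.05 were 0 in either direction with all arrays and with the 25. In the 18 arrays they were 0 above and 5 below, beside 5.18% and 4.60% of all genes. Postn, periostin, which activated fibroblasts secrete, belongs to the collagen and matrix list and is not among these markers. It stood at 6.62, 7.13 and 7.51 in fine particle hearts, against 7.09, 7.69 and 8.07 in filtered air hearts, a difference of -0.49 ± 0.20. Lum and Ogn, small proteoglycans that bind collagen, differed by -0.60 ± 0.32 and -0.60 ± 0.32, with fine 2 and fine 1 again lowest and air 7 highest. Of 48 collagen and matrix genes 23 lay above 0 with 1 below at an unadjusted p under 0.05, Postn, beside 2.72% of all genes. Among endothelial markers 17 of 26 lay above 0, with Icam2, an adhesion molecule, at 0.22 ± 0.10, Sox18 at 0.35 and Egfl7 at -0.42. Of 11 smooth muscle and pericyte markers 9 lay above 0, with Smtn, smoothelin, at 0.37 ± 0.28, and in integrins and adhesion 20 of 32, with Parva, which links integrins to actin, at 0.20 ± 0.09.

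The widest difference of all named genes belonged to fat. Ucp1, the uncoupling protein of brown adipocytes, stood at 7.96, 9.76 and 10.99 in fine particle hearts, against 5.82, 7.53 and 11.30 in filtered air hearts. Both groups spanned several log2 units, and air 5, at 11.30, was the highest of the 13 arrays. The difference was 2.10 ± 0.99 (95% interval 0.06 to 4.14, limma's adjusted p 0.829), and 1.68 in the 18 arrays. Cidea, a lipid droplet protein of the same cells, differed by 0.40 ± 0.18 and Lipe, hormone-sensitive lipase, by 0.28 ± 0.19. Of 15 adipocyte markers 12 lay above 0 with a median of 0.16, and 11 in the 18 arrays with a median of 0.15. The mean of the list ran from 7.99 to 9.13 with fine particles and 7.74 to 9.12 with filtered air, so the spread within each group was wider than the difference between them. How much fat went with each heart was not tested.

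The red cell genes Hbb-b1 and Ahsp were highest on fine 2 and above every filtered air array on 3 other fine particle arrays as well. Hbb-b1, a beta globin chain, stood at 11.41, 12.42 and 13.88 in fine particle hearts, against 11.14, 11.86 and 12.18 in filtered air hearts, with a difference of 0.75 ± 0.36 that shrank to 0.22 in the 18 arrays. Hbb-b1 read 13.88 on fine 2, 13.05 on fine 4, 12.49 on fine 1 and 12.35 on fine 3, against at most 12.18 with filtered air. Ahsp, the chaperone of alpha globin, read 8.54, 7.13, 6.98 and 6.63 on the same arrays, against at most 6.49. Fine 2 was also highest in Npy, neuropeptide Y of sympathetic nerves, at 9.63. Of 10 red cell markers 6 lay above 0 and 4 below, and their mean was 8.32 to 9.13 with fine particles and 8.34 to 8.57 with filtered air. At an unadjusted p under 0.05 by limma were 1 above and 1 below, beside 3.66% and 2.72% of all genes. Skeletal muscle markers, 4 of 8 above 0, and nerve and Schwann cell markers, 5 of 9, were even.

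Other named genes of wide difference were above filtered air. Mycn, a Myc transcription factor, stood at 8.04, 8.16 and 8.37 in fine particle hearts, against 7.28, 7.49 and 8.14 in filtered air hearts, and only air 5 reached into the fine particle range. Its difference was 0.60 ± 0.23 and its adjusted p 0.824 by limma. The small GTPase Rhoa differed by 0.51 ± 0.24, the phosphatase Phospho1 by 0.50 ± 0.20, the ubiquitin-like Ubl7 by 0.49 ± 0.14, the mitochondrial glutathione carrier Slc25a39 by 0.47 ± 0.19 and the adhesion protein Pcdh19 by 0.45 ± 0.18.

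No gene of the regulatory programmes outside these groups was called. Of 22 glucocorticoid-responsive genes 7 lay above 0 with a median of -0.11, and 5 in the 18 arrays with -0.09. Among them Errfi1, a brake on growth factor receptors, differed by -0.32 ± 0.15 and the metallothionein Mt1 by 0.35 ± 0.17. Of 28 immediate early genes 9 lay above 0, with Klf6 at -0.48 ± 0.31. Of 34 cell cycle genes 8 lay above 0 with all arrays and 16 in the 25, and fine 2 and air 1, high in lymphocyte genes, held the highest means of this list in their groups, 6.71 and 7.19. Ccnd2, a D-type cyclin, differed by 0.24 ± 0.10.

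In the clock list 7 of 12 lay above 0, with Nr1d1, its repressor Rev-erb alpha, at 0.37 ± 0.24. In apoptosis and p53 9 of 25 did, with the damage genes Gadd45g and Gadd45a at -0.58 ± 0.31 and -0.38 ± 0.20, and in hypoxia 7 of 18. Of 44 lysosome genes 26 lay above 0. At an unadjusted p under 0.05 were 4 above, Rnasek among them, and 1 below (7 and 3 in the 18 arrays, 2 and 0 in the 25), beside 3.66% and 2.72% of all genes, with the hexosaminidase Hexa at 0.24 ± 0.11 and Laptm4b at 0.30 ± 0.12. Autophagy had 13 of 30, with Rb1cc1, which starts the autophagosome, at -0.44 ± 0.20. Insulin and mTOR signalling had 17 of 29, with the receptor Igf1r at 0.23 and Tsc2, a brake on mTOR, at 0.24. Cholesterol genes had 17 of 25, with Insig1, the retention factor of SREBP, at 0.18, and TGF beta signalling 20 of 30, with its ligand Tgfb1 at 0.34 ± 0.18. Iron and haem handling had 11 of 18, with the haem synthesis enzyme Alad at 0.26 ± 0.13, and antigen presentation 6 of 12, with 9 of 12 in both the 18 and the 25 arrays.

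**Figure D4:**
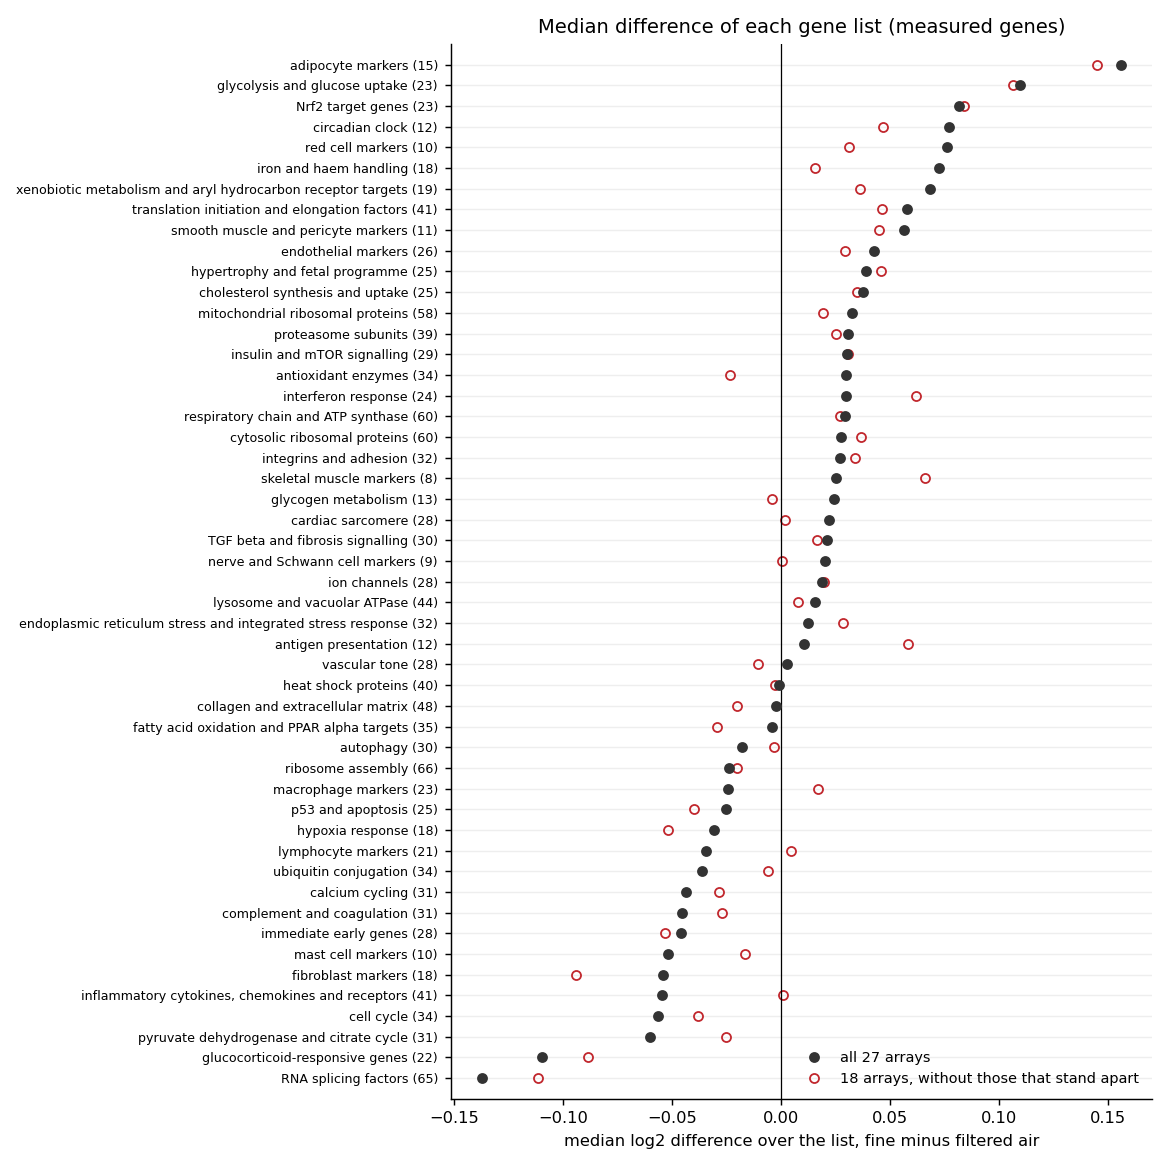
Median log2 difference between fine particle and filtered air hearts for each of 50 gene lists, with all 27 arrays (filled) and with the 18 left without those that stand apart (open). With all 27 arrays the splicing and glucocorticoid lists lie lowest, and the adipocyte and glycolysis lists highest. In the 18 arrays the fibroblast list lies between the splicing and glucocorticoid lists.

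The other particle sizes show where the fine particle hearts stood within the study. The comparisons with coarse and with ultrafine particles use the same 6 fine particle arrays, so they are not independent of each other or of the comparison with filtered air. Against coarse particles 3 probes of 11657 (0.0257%) were called, 2 higher (0.0172%) and 1 lower (0.00858%) with fine particles. Against filtered air, coarse particles had 1 called probe (0.00858%) and ultrafine particles 8 (0.0686%), with 4.07% and 5.28% of probes at an unadjusted p under 0.05, where fine particles had 0 and 5.98%. Against ultrafine particles, fine particles had 23 (0.197%) called, 12 higher (0.103%) and 11 lower (0.0944%).

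Cyp2e1 was lower with fine particles than with both other sizes. Its levels were 7.06, 7.34 and 7.41 in fine particle hearts (lowest, median and highest), against 8.04, 8.14 and 8.23 in coarse and 7.28, 8.07 and 8.27 in ultrafine particle hearts. No fine particle array overlapped the coarse ones, while the lowest ultrafine arrays lay within the fine particle range. The log2 difference was -0.85 ± 0.14 from coarse (limma's adjusted p 0.0262) and -0.66 ± 0.13 from ultrafine particles (adjusted p 0.0227). Filtered air hearts stood at 6.80, 7.36 and 7.71, and the difference of fine particles from filtered air was -0.01 (95% interval -0.29 to 0.27). The differences between sizes were -0.86 and -0.79 in the 18 arrays and -0.85 and -0.66 in the 25, called in both. With 1 fine or ultrafine array left out, the difference from ultrafine particles was called in 7 of 14 fits, with limma's adjusted p of 0.00441 to 0.0892.

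Ddn and Fbxl22 were higher with fine particles than with both other sizes. Ddn, dendrin, stood at 6.69, 6.82 and 6.87 in fine particle hearts, against 5.88, 6.35 and 6.46 in coarse, 5.97, 6.35 and 6.43 in ultrafine and 6.43, 6.79 and 6.87 in filtered air hearts. Its difference was 0.54 from coarse (limma's adjusted p 0.0315) and 0.54 from ultrafine particles (adjusted p 0.0101). Fbxl22, an F-box protein that marks sarcomere proteins for breakdown, stood at 10.37, 10.47 and 10.68 in fine, 9.07, 9.69 and 9.88 in coarse, 9.12, 9.63 and 10.48 in ultrafine particle and 10.08, 10.24 and 10.58 in filtered air hearts. It differed by 0.92 ± 0.16 from coarse (adjusted p 0.0315) and 0.80 ± 0.15 from ultrafine particles (adjusted p 0.0206). All 3 calls against coarse particles were kept in the 18 arrays. In the 25 arrays Cyp2e1 kept its call, and Ddn and Fbxl22 did not, with adjusted p of 0.0902 and 0.143 by limma. Each of the 3 was called in only 2 of 12 fits with 1 fine or coarse array left out, those without coarse 5 and without coarse 6. In the other fits limma's adjusted p reached 0.0898, 0.12 and 0.14 for Cyp2e1, Ddn and Fbxl22.

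Txnip and Acot1 were lower with fine than with ultrafine particles. Txnip, which curbs glucose uptake and binds thioredoxin, stood at 11.30, 11.48 and 12.05 in fine, 12.08, 12.48 and 12.91 in ultrafine particle and 11.45, 11.64 and 11.88 in filtered air hearts. The fine and ultrafine particle groups did not overlap, and the difference was -0.92 ± 0.16 (limma's adjusted p 0.0116). Acot1, a thioesterase that PPAR alpha induces, differed by -0.53 ± 0.10 (adjusted p 0.0163), with 6.04 ± 0.16 in fine, 6.57 ± 0.23 in ultrafine particle and 6.10 ± 0.05 in filtered air hearts.

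Pdk4 had the widest differences of these genes and was not called with all arrays. Its levels were 7.59, 7.90 and 8.20 in fine particle hearts, against 7.94, 9.05 and 9.82 in coarse, 7.25, 9.20 and 10.15 in ultrafine and 7.25, 7.52 and 8.48 in filtered air hearts. The difference was -1.18 ± 0.37 from coarse (limma's adjusted p 0.736) and -1.27 ± 0.34 from ultrafine particles (adjusted p 0.11). Without the 9 arrays that stand apart it was -1.68 (adjusted p 0.0186) and -1.79 (adjusted p 0.00181). The lowest ultrafine particle value, 7.25, was that of ultrafine 7, an array left out there. From filtered air, fine particles differed by 0.11 (95% interval -0.62 to 0.84).

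The other calls against ultrafine particles covered the cytoskeleton, lipid droplets and the nucleus. Tuba8, an alpha tubulin of muscle, stood at 8.71, 8.96 and 9.14 in fine, 7.41, 8.16 and 8.34 in ultrafine particle and 8.55, 8.74 and 9.08 in filtered air hearts, with a difference of 0.92 ± 0.16 (limma's adjusted p 0.0101). Atcay, caytaxin, differed by 0.86 ± 0.18, the lipid droplet protein Plin3 by 0.48, the myosin Myo16 by 0.33 and Mix23 by 0.27. The probe named for the pseudogene Ndufs6-ps1, which may also read its parent gene Ndufs6, differed by 0.48. Below ultrafine particles were the membrane skeleton gene Epb41 at -0.56 ± 0.09 (adjusted p 0.0101), Sat1, which acetylates polyamines, at -0.57, the ribonuclease Rnase1 at -0.45, the DNA repair enzyme Parp2 at -0.29 and Retnla, a resistin-like secreted protein, at -0.23. Retnla lay at the edge of the filter, with means of 5.67 in fine and 5.90 in ultrafine particle hearts. Of the groups only ultrafine exceeded the lowest kept mean of 5.79. Retnla was therefore kept through the group where it was high, and its call carries no weight. Myo16 was also low, with means of 6.04 in fine and 5.71 in ultrafine particle hearts. A further 4 called probes carried no gene name.

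The same genes can be set beside filtered air, with the same fine particle arrays. Fine particle hearts had log2 differences from filtered air of -0.08 in Txnip, -0.05 in Acot1, -0.05 in Epb41, 0.19 in Tuba8, 0.03 in Atcay, 0.20 in Fbxl22 and 0.08 in Ddn, each with an interval that includes 0. For Ncl, Cptp and Sra1 the difference from filtered air was -0.44, 0.31 and 0.26, with intervals that leave out 0, though none was called. Ncl stood at 7.96 ± 0.13 in fine, 8.44 ± 0.26 in ultrafine particle and 8.40 ± 0.11 in filtered air hearts (SD). Its difference from ultrafine particles was -0.48 (limma's adjusted p 0.0227), and in the 18 arrays -0.32 (adjusted p 0.252). Cptp had 6.93 ± 0.10 in fine, 6.51 ± 0.11 in ultrafine particle and 6.63 ± 0.09 in filtered air hearts, with a difference of 0.42 from ultrafine particles (adjusted p 0.0101). Sra1 had 7.95 ± 0.10 in fine, 7.69 ± 0.09 in ultrafine particle and 7.69 ± 0.11 in filtered air hearts, with a difference of 0.26 (adjusted p 0.0341).

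The calls against ultrafine particles depended on the arrays. With 1 fine or ultrafine array left out, their number was between 7 and 168, with 10, 15, 7 and 8 calls without fine 1, fine 3, fine 4 and fine 5, and 15, 12, 15, 62, 168 and 60 without ultrafine 1, 2, 3, 4, 5 and 8. Coarse arrays enter through the shared spread, and without coarse 1 the number was 61. The call was made in 14 of 14 fits without 1 fine or ultrafine array for Tuba8, Ddn, Epb41, Cptp, Plin3 and Rnase1, in 13 of 14 for Txnip and Myo16, 12 of 14 for Acot1, 11 of 14 for Parp2 and 9 of 14 for Fbxl22. It was made in 8 of 14 for Ncl and Ndufs6-ps1, 6 of 14 for Atcay, 5 of 14 for Mix23, 4 of 14 for Sra1 and 3 of 14 for Sat1 and Retnla. In the 25 arrays Acot1, Fbxl22, Ncl, Sra1, Sat1, Retnla, Mix23 and Ndufs6-ps1 were not called, with limma's adjusted p between 0.0558 and 0.138. Without the 9 that stand apart, Sat1, Ncl, Retnla, Sra1, Mix23 and Ndufs6-ps1 were not called, with adjusted p between 0.0671 and 0.297, and the 54 probes called there included Tuba8, Ddn, Acot1, Txnip, Cyp2e1, Epb41, Cptp, Fbxl22, Atcay, Plin3, Rnase1, Parp2, Myo16 and Pdk4. The splicing genes were not called against either size. Luc7l3 differed by -0.54 from coarse (limma's adjusted p 0.738) and by -0.67 from ultrafine particles (adjusted p 0.207).

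**Figure D5:**
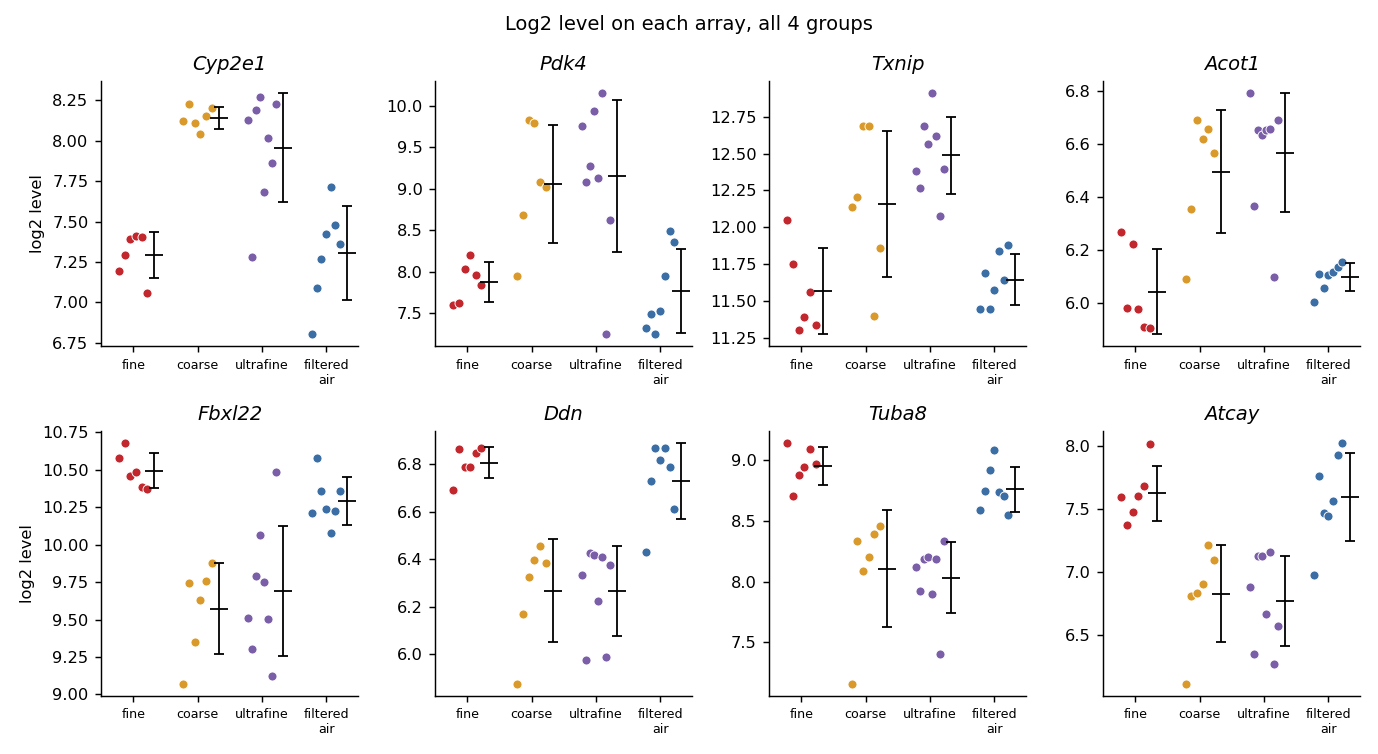
Log2 level of 8 genes on each array (points) with the group mean and SD (bar), for fine, coarse and ultrafine particles and filtered air from left to right. The means of fine particle and filtered air hearts lie together below those of the other sizes in Cyp2e1, Pdk4, Txnip and Acot1, and above them in Fbxl22, Ddn, Tuba8 and Atcay.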

How the data were processed

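Heart RNA of male Fisher 344 rats was measured on Illumina rat bead arrays. The values are the authors' deposited table of 22226 probes on 27 arrays, on a log2 scale from 5.12 to 14.17. Per the series' design text, the authors preprocessed them with lumi at default settings (version 1.5.17 per the submitters' processing notes) and kept 11657 probes that were detected in at least 1 sample. A plain log2 and a variance-stabilising transform cannot be told apart here, as the step is not given in the sources used here. The sorted values of every array lay within 0.0185 of those of air 1, so no further normalization was made. Detection p-values were not used here, so the 11657 probes of highest mean over all arrays were kept (lowest mean 5.79). The number of arrays limits the precision.

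Probes were named through the platform's annotation, with symbols checked against RefSeq (GRCr8): 13192 probes had 1 symbol, 13151 of them matched, 41 did not, and 9034 had none. Where a gene had several kept probes (77 of 7952 genes), the one of smallest p between fine particles and filtered air stood for it, for members and all genes alike.

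Groups came from the array titles. A single linear model held the 4 groups, fitted with limma 3.58.1 (R 4.3.3), with moderated tests, Benjamini-Hochberg adjustment over all kept probes and an adjusted p under 0.05 as the call. Tables and motif searches used Python 3.11.15 with pandas 2.3.3. The script was tested on simulated data. Equal array numbers were not used as pairs.

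Genes were named by a rule: the 12 of smallest p and the 8 of largest difference at an unadjusted p under 0.05 in each direction, up to 3 for each of 50 lists, 24 genes expected from work on particles (20 passed the filter, Cyp1a1, Il6 and Tnf did not, and no probe was named Cyp1b1), and 5 in each direction between particle sizes. Named after their values were seen were the other members of the splicing, ribosome assembly and proteasome lists at an unadjusted p under 0.05, Rnase1, Parp2, Retnla, Plin3, Myo16, Mix23, Pdk4 between sizes, and the cell type markers that describe single arrays. The members and lists were chosen with earlier results of these data known. Arrays were taken to stand apart where the lymphocyte mean exceeded the median array's by more than 3 median absolute deviations, or where the correlation with the other arrays was low. Alternatives are given in the closing section.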

Additional observations from a re-analysis of the deposited data

Results flagged for a closer look

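Some arrays lay far from the rest of their group. Part of the named genes, with genes expected from work on particles, and the list means were examined in 234 groups of fine particle or filtered air arrays. An array was taken as outlying where its gap to the nearest other one was too large a part of the group's range (Dixon's test at 95%). Chance gives about 1 in 20 such groups, and 13 were found, so the number itself shows nothing.

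On fine 2 the mean of respiratory chain genes was 11.58, against 11.72 to 11.80 on the other 5 fine particle arrays. The mean of autophagy genes was 7.66 on fine 2, against 7.80 to 7.86, and that of cell cycle genes 6.71, against 6.35 to 6.49. On fine 4 interferon genes stood at 7.60, against 7.65 to 7.68, and on fine 5 genes of xenobiotic metabolism stood at 7.97, against 7.82 to 7.85.

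In filtered air, air 1 held most of the outlying values. Lymphocyte genes stood there at 8.03, against 6.07 to 6.40 on the other 6 arrays, cell cycle genes at 7.19, against 6.33 to 6.45, and cytosolic ribosomal genes at 11.32, against 10.83 to 10.99. Lower on air 1 were respiratory chain genes at 11.50, against 11.74 to 11.82, antioxidant enzymes at 8.99, against 9.20 to 9.28, autophagy genes at 7.66, against 7.80 to 7.88, and Sod2 at 8.98, against 9.67 to 10.15. Air 7 had 14.04 for Atp2a2, which lay at the table's ceiling of 14.17 on the other 6.

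Of the genes that differed between fine particles and another size by limma's test of the difference itself, 13 were named by the rule for named genes and are given here. From coarse particles, fine particles differed by -0.85 in Cyp2e1 (adjusted p 0.0262), by 0.92 in Fbxl22 and by 0.54 in Ddn (adjusted p 0.0315 for both). From ultrafine particles they differed by 0.92 in Tuba8, 0.42 in Cptp, 0.54 in Ddn and -0.56 in Epb41 (adjusted p 0.0101 by limma for each). They differed by -0.92 in Txnip (adjusted p 0.0116), -0.53 in Acot1 (0.0163) and 0.80 in Fbxl22 (0.0206), and by -0.66 in Cyp2e1, -0.48 in Ncl and 0.48 in Ndufs6-ps1 (0.0227 for each). The last were 0.86 in Atcay (adjusted p 0.0318 by limma), 0.26 in Sra1 (0.0341) and -0.57 in Sat1 (0.0463).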

How the results depend on the processing

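Fine particles against filtered air gave 0 called probes in the main analysis and in each alternative tried except array weights, which gave 19, with 16 by the looser rule of the authors. The compared groups fitted alone gave 10 by that rule. In that fit 13.3% of probes had an unadjusted p under 0.05, and limma's lowest adjusted p was 0.0597, against 5.98% and 0.405 in the main analysis. Fine against coarse particles gave 3 calls, and 1 without a filter, 6 with cyclic loess, 55 with array weights, 1 without air 1 and fine 2, and 17 without the arrays that stand apart, with 0 to 4 when 1 fine or coarse array was left out and 8 without ultrafine 7 or ultrafine 8. Fine against ultrafine particles gave 23, and 13 among the brighter probes, 58 with cyclic loess, 815 with array weights, 5 with the compared groups alone, 12 without air 1 and fine 2, and 54 without the arrays that stand apart, with 7 to 168 when 1 fine or ultrafine array was left out and 61 without coarse 1. Equal array numbers were not taken as pairs. The correlations of same-numbered fine particle and filtered air arrays were -0.02, -0.17, -0.10, -0.16, 0.33 and 0.56. Being of both signs, these values do not decide whether the numbers pair the samples. With the number as a replicate block the counts were 0, 9 and 51 against filtered air, coarse and ultrafine particles.

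Of the 210 named genes' differences from filtered air, 2240 of 2263 values under the other alternatives and 2705 of 2730 with 1 array left out kept their direction and side of the threshold, 10 passed the threshold with array weights, and the remaining 13 and 25 changed sign. Those were -0.0059 for Pdk4 with the replicate block and -0.029 for Myh6 with array weights. Without air 1 and fine 2 they were -0.021 for Nqo1, -0.034 for Myh6, 0.000619 for Myh7, 0.013 for Il1b and -0.024 for Atcay. Without the arrays that stand apart they were -0.0078 for Nqo1, -0.036 for Myh6, 0.000094 for Myh7, 0.017 for Il1b, -0.0063 for Atcay and -0.0041 for Ppp1r3a. With 1 array left out the ranges were -0.10 to 0.056 for Cyp2e1, -0.025 to 0.073 for Nqo1, -0.40 to 0.063 for Nppa, -0.044 to 0.078 for Myh6, -0.036 to 0.0080 for Myh7, -0.060 to 0.032 for Il1b, -0.10 to 0.023 for Agtr1a, -0.080 to 0.059 for Apln, -0.12 to 0.015 for Epb41 and -0.075 to 0.10 for Atcay. The cause of these changes was not tested. The intervals give the precision of each estimate. For probes near the lowest or highest values of the table they do not show that a change could be detected. Signal over background was not examined, since detection p-values were not used here.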

Other observations

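When arrays were weighted by how well they fitted the model, 19 probes were called between fine particles and filtered air, of which 4 carried no gene name. Sra1 (0.25), Psmb5 (0.40), Rnasek (0.41), Naxe (0.29), Lrrc41 (0.33), Cptp (0.26) and Csnk1d (0.25) had higher levels with fine particles, and Ncl (-0.41), Eif3a (-0.48) and Gtf2h1 (-0.28) lower ones, as log2 differences in that analysis. The genes called there that the earlier text does not name were Irf2bp1, a corepressor bound by Irf2 (0.30), Ubqln4, which brings proteins to the proteasome (0.27), Bcl7b, a subunit of the BAF chromatin remodeller (0.26), the kinase Pskh1 (0.23) and Phf3, which binds RNA polymerase II (-0.21). Limma's adjusted p lay between 0.0216 and 0.0482 for all 19. With equal weights their lowest adjusted p was 0.405. Among fine particle and filtered air arrays the weights ran down to 0.511 on fine 2 and 0.571 on air 1, the arrays highest in lymphocyte genes within their groups. They stood at 2.33 and 2.46 on fine 3 and air 2. The lowest weights of all fell outside the comparison, 0.135 on ultrafine 8, 0.139 on ultrafine 7 and 0.151 on coarse 1. Those arrays enter through the shared spread, and their part in the 19 calls was not tested.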
